A study of Mus musculus with 282 samples.

Results

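Vwf-detected hematopoietic stem cells (HSCs) were compared with HSCs in which no Vwf read was found, among single cells of mouse bone marrow. A kept cell was Vwf-detected when Vwf, the gene of von Willebrand factor, stood at 10 CPM or more (reads scaled to 1 common total per cell), and Vwf-negative when it held 0 Vwf reads. Of 282 cells, 232 were kept, of which 63 were Vwf-detected, 157 were Vwf-negative and 12 lay between and were left out. The cells were thus chosen by their Vwf reads, and all Vwf values below are a description without a test.

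The cells came from the LSK CD48-/lo CD150+ gate of bone marrow, where LSK means cells without lineage markers that carry Sca-1 and Kit. All mice carried R26 rtTA/rtTA and Col1A1 H2B-GFP/H2B-GFP, a doxycycline-controlled activator with a histone H2B-GFP transgene, and none was induced. The series text gives 6 mice aged 12 to 22 weeks in 2 experiments, and the study is about how often primitive HSCs divide. The labels name no mouse per cell, so 6 sets were formed from the library series (L29 or L32) and the HSC code. Whether these are separate animals is not known, and p-values reflect how much the 6 sets vary, which may be technical.

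Von Willebrand factor is a large glycoprotein made by endothelial cells and megakaryocytes. It is stored in endothelial Weibel-Palade bodies and in platelet alpha granules, and it tethers platelets to injured vessel walls through the platelet receptor glycoprotein Ib. In mice, HSCs that express a Vwf reporter are known as a subset whose output after transplantation leans toward platelets and that depends on thrombopoietin, the hormone of platelet production. RNA levels alone do not measure platelet output, so the cells are called Vwf-detected here.

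Kept cells held at least 116009 gene counts. The total was close between the classes, at a mean log2 of 18.17 ± 0.20 (SD, n = 6 sets) in Vwf-detected and 18.16 ± 0.28 in Vwf-negative cells. Vwf-detected cells held 5571 ± 447 genes and Vwf-negative cells 5338 ± 427, with the larger value in Vwf-detected cells in 5 of 6 sets. That difference of 232 ± 333 genes did not pass an exact two-sided sign-flip test over sets (p = 0.1875, adjusted p = 0.875 over 5 measures, smallest possible p 0.03125). With every kept cell thinned to 100000 reads and classed anew, by whether a Vwf read remained (68 of 232 cells), it was 193 ± 201 genes. These values rest on set means. By set medians without thinning, the classes were close in L29 HSC-3 (5706.5 against 5684 genes) and L32 HSC-5 (5147 against 5082.5). Gaps were wider in the other sets, in L32 HSC-2 toward Vwf-negative cells. In L29 HSC-3, 1 Vwf-detected cell held 11926 genes from 122145 counts. The number of genes detected entered the main limma comparison of each gene as a covariate. The edgeR and DESeq2 comparisons on summed counts did not carry it. The mitochondrial share of reads was 4.05% ± 0.94 against 4.13% ± 1.27, and gene reads per spike-in read were 4.19 ± 0.44 against 4.15 ± 0.37 on the log2 scale (each adjusted p = 0.875, same exact test).

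Vwf, ENSMUSG00000001930, lies on the plus strand of chromosome 6 at 125546774 to 125686679 in mm10, and no other gene of the table overlaps it. It was detected in 27.2% of kept cells (exact 95% interval 21.5% to 33.4%). The share was 34.8% in L29 HSC-3 (16 of 46 cells) and 11.6% in L29 HSC-4 (5 of 43). In the L32 series it was 31.8% in HSC-2 (7 of 22), 25.0% in HSC-3 (11 of 44), 28.9% in HSC-4 (11 of 38) and 33.3% in HSC-5 (13 of 39). L29 HSC-4 was the lowest set and also held the fewest genes per cell, with a set mean of 4517 in its Vwf-negative cells. Exact intervals, here and below, cover counting error of pooled cells only and leave out the spread between sets. Over the 6 sets the share had a mean of 27.6% ± 8.55 (SD).

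**Figure D1:**
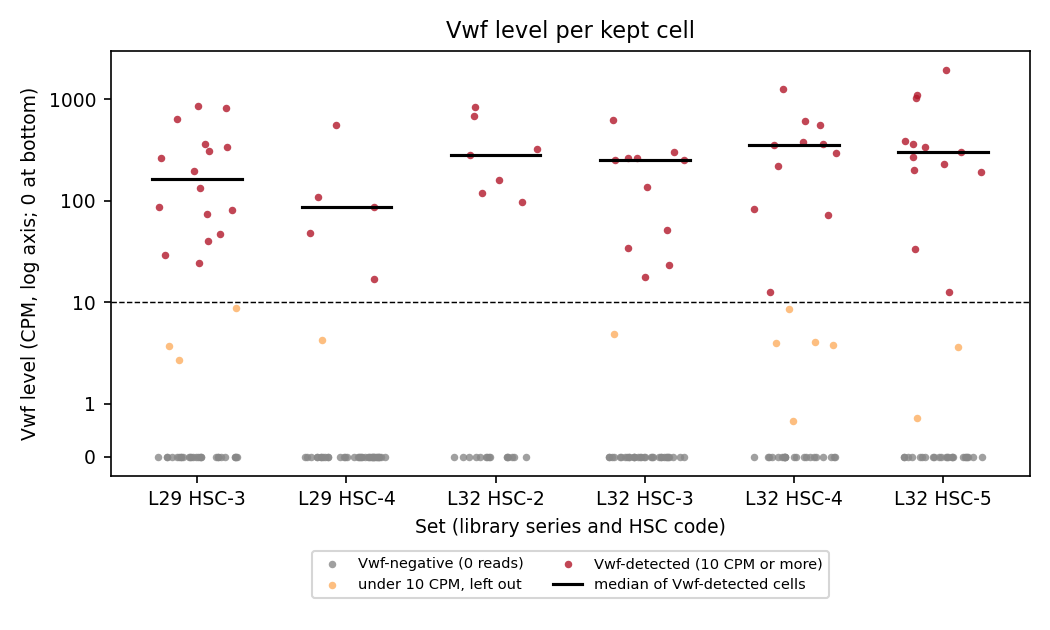
Vwf level in each kept cell (CPM, log axis with 0 at the bottom) by set. Grey points are Vwf-negative cells, orange points the 12 cells left out, red points Vwf-detected cells, bars their medians and the dashed line the 10 CPM threshold. Detected cells range from 12.6 to 1949.5 CPM.

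Among the 63 Vwf-detected cells the level ran from 12.6 CPM (3 reads) over a median of 250.4 CPM to 1949.5 CPM. The middle of the distribution was broad, with quartiles at 82.2 and 366 CPM. Set medians were 165 CPM in L29 HSC-3, 87.8 in L29 HSC-4, 283 in L32 HSC-2, 250 in L32 HSC-3, 359 in L32 HSC-4 and 303 in L32 HSC-5. Just inside the threshold lay cells at 12.6, 12.7 and 16.9 CPM, and just outside it cells at 8.72, 8.64 and 4.85 CPM. Of 38 near-empty L32 wells, 8 held a Vwf read, at most 4 reads each. Summed over those wells Vwf was at 24.3 CPM (15 of 616795 gene reads), and summed over kept cells from these 2 sets it was at 68.7 CPM. The lowest Vwf-detected cells lay under the first of these levels. CPM in near-empty wells, here and below, is scaled from far fewer reads per well than in a kept cell. It need not be the background level of a kept cell. Shares moved between plates of 1 set without a common direction, from 33.3% to 15.0% in L32 HSC-3, from 34.8% to 20.0% in L32 HSC-4 and from 21.7% to 50.0% in L32 HSC-5.

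For each gene and set, log2(CPM/10 + 1) was modelled on Vwf class, genes detected and plate, and the 6 class differences were tested against 0 in limma. No gene passed an adjusted p of 0.05, 0 of 9775 tested (0%), and edgeR on counts summed per set and class also called 0. Without adjustment, 648 genes (6.63%) lay under p = 0.05 in limma and 327 (3.35%) in edgeR. The split was 307 genes higher in Vwf-detected cells (3.14%) and 341 lower (3.49%). DESeq2 on the same sums called 80 genes (0.818%), 16 higher (0.164%) and 64 lower (0.655%). A single sign in 6 of 6 sets was found for 336 genes (3.44%). The median difference over all genes was -0.01, and 49% of genes were above 0, the share to set beside the list counts below. In simulated data of the same size, limma recovered 27% of genes changed 4-fold and 85% of those changed 16-fold. The simulated cells had no set or plate differences and the same fold in every set, so these shares need not hold for the real data. Values named below are therefore differences that did not pass the test over all genes, given with their unadjusted p from limma, and each adjusted p is 0.712 or more.

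Sult1a1, a cytosolic sulfotransferase for phenolic compounds and a member of the long-term HSC list, had the smallest p. Its gene spans chromosome 7 from 126672865 to 126676432 (ENSMUSG00000030711). In Vwf-detected cells its mean level was 282 and 294 CPM in L29 HSC-3 and HSC-4, and 772, 203, 478 and 882 CPM in L32 HSC-2, HSC-3, HSC-4 and HSC-5. In Vwf-negative cells it was 87.3, 99.5, 143, 128, 229 and 426 CPM in the same order. Each set had the larger value in its Vwf-detected cells, although the ranges of the classes overlap across sets. The difference was 1.85 ± 0.34 (SE, 6 sets, limma unadjusted p = 0.000321, adjusted p = 0.712), above 0 in 6 of 6 sets, where 141 of all genes (1.44%) were positive in every set. At 10 CPM or more it was found in 48 of 63 Vwf-detected and 62 of 157 Vwf-negative cells, a mean over sets of 73.9% ± 22.8 and 42.9% ± 20.5 (SD). DESeq2 on sums gave it an adjusted p of 3.64e-07.

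Selp encodes P-selectin, the adhesion receptor that shares its storage granules with von Willebrand factor, on chromosome 1 at 164115264 to 164150026 (ENSMUSG00000026580). Vwf-detected cells held 5.01 and 0 CPM in L29 HSC-3 and HSC-4, and 201, 145, 221 and 97.1 CPM in L32 HSC-2 to HSC-5. Vwf-negative cells held 21.8, 1.18, 16.6, 17.9, 79.9 and 5.01 CPM. The 4 L32 sets had the larger value in Vwf-detected cells and both L29 sets the smaller. The difference over 6 sets was 1.09 ± 0.34 (limma unadjusted p = 0.00964), with a mean of -0.09 in L29 and 1.69 in L32. That difference between library series had an unadjusted limma p of 0.00275 and an adjusted p of 0.90, and 525 genes (5.37%) lay under an unadjusted p of 0.05 in this comparison. The labels name no experiment per cell. Whether the library series match the 2 experiments is not known, so effects of series and experiment cannot be told apart.

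Clu encodes clusterin, a secreted chaperone that platelets also store in alpha granules, on chromosome 14 at 65968483 to 65981548 (ENSMUSG00000022037). Its level in Vwf-detected cells was 70.1 and 0.846 CPM in L29 HSC-3 and HSC-4, and 383, 170, 102 and 335 CPM in L32 HSC-2 to HSC-5. Vwf-negative cells held 32.8, 16.2, 0, 21.9, 24.0 and 45.0 CPM. All sets but L29 HSC-4 had the larger value in Vwf-detected cells. The difference was 1.33 ± 0.41 (limma unadjusted p = 0.00952), again with a smaller mean in L29 (0.14) than in L32 (2.11). Clu was found in 23 of 63 Vwf-detected and 14 of 157 Vwf-negative cells.

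Slamf1 encodes CD150, the surface protein used in the sorting gate, on chromosome 1 at 171767127 to 171801184 (ENSMUSG00000015316). Vwf-detected cells held 47.3, 84.3, 95.9, 175, 112 and 146 CPM in L29 HSC-3 and HSC-4 and then L32 HSC-2 to HSC-5. Vwf-negative cells held 83.6, 28.2, 38.8, 57.8, 6.67 and 54.4 CPM. All sets but L29 HSC-3 had the larger mean level in Vwf-detected cells. The difference was 0.95 ± 0.27 (limma unadjusted p = 0.00624), and Slamf1 was found in 23 of 63 against 19 of 157 cells, or 36.2% ± 14.2 against 12.0% ± 6.38 over sets (SD).

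The start regions of 3 of these genes are shown because the genes had larger values beside Vwf in at least 4 sets and because GATA and ETS factors are known regulators of megakaryocyte genes. Each runs from 250 bases before to 50 bases after the gene start, from RefSeq on GRCm38.p6, read 5′ to 3′ along the gene. Capitals mark GATAA and GGAAG on either strand (TTATC and CTTCC on the other), and no matches overlap. Sult1a1 is chr7:126676369-126676668 on the minus strand, Selp chr1:164115014-164115313 and Slamf1 chr1:171766882-171767181, both on the plus strand.
Sult1a1: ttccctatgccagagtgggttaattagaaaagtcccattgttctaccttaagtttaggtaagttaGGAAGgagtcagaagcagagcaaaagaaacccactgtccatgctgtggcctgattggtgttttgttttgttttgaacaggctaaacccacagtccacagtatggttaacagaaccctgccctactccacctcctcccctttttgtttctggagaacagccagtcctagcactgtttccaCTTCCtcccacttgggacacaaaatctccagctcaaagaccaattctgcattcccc
Selp: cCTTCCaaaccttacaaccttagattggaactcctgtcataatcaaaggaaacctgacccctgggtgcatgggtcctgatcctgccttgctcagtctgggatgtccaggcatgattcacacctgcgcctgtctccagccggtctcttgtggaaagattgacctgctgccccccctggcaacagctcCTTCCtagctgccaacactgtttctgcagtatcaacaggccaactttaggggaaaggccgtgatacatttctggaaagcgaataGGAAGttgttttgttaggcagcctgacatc
Slamf1: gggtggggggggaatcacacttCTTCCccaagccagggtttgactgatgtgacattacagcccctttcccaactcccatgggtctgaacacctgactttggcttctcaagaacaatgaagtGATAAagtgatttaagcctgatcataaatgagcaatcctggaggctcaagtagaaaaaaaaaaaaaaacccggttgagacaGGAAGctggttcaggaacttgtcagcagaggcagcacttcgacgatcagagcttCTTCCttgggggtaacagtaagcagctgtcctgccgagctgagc
Sult1a1 held 2 GGAAG matches, Selp 3 and Slamf1 3, and only Slamf1 among them held GATAA, 1 time. Of all 32851 windows of this length, 71.4% held GGAAG and 25.4% held GATAA, so these matches are common.

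Of 15 tested genes of the thrombopoietin pathway, 12 were above 0, where 49% of all genes were. Under an unadjusted limma p of 0.05 lay 2, both higher, where 3.14% of all genes were. Among them was the ubiquitin ligase gene Cbl (0.58 ± 0.19, above 0 in 6 of 6 sets). The others included the kinase gene Jak2 at 0.29 and the transcription factor genes Stat5a at 0.00 and Stat5b at 0.18.

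Vwf was left out of the megakaryocyte and platelet list. Of its 19 tested members, 13 were above 0, where 49% of all genes were. Under an unadjusted limma p of 0.05 lay 6, all higher, where 3.14% of all genes were. None passed the adjusted test. The list's median was 0.11 beside -0.01 over all genes, above 0 in 4 of 6 sets. Among the 6 were Clu, Selp, the LIM protein Fhl1 (0.76) and the caveolar protein Cavin2 (0.63). Cavin2 had a mean of -0.31 in L29 and 1.08 in L32 (unadjusted limma p of the difference 0.00284, adjusted p = 0.90). Most of the genes that define the lineage lay near 0 or below it. The integrin subunits Itga2b and Itgb3 had 0.06 and 0.11, the alpha-granule protein Mmrn1 0.13, the platelet chemokine Pf4 -0.29 and the glycoprotein Gp9 -0.30. The tetraspanin gene Cd9, a neighbour of Vwf on chromosome 6, had 0.17. Of 13 tested genes within 500 kb of Vwf, 5 were above 0 with a median of -0.12, and the lymphotoxin receptor gene Ltbr (0.46) and the receptor gene Cd27 (-0.92) lay under an unadjusted limma p of 0.05.

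**Figure D2:**
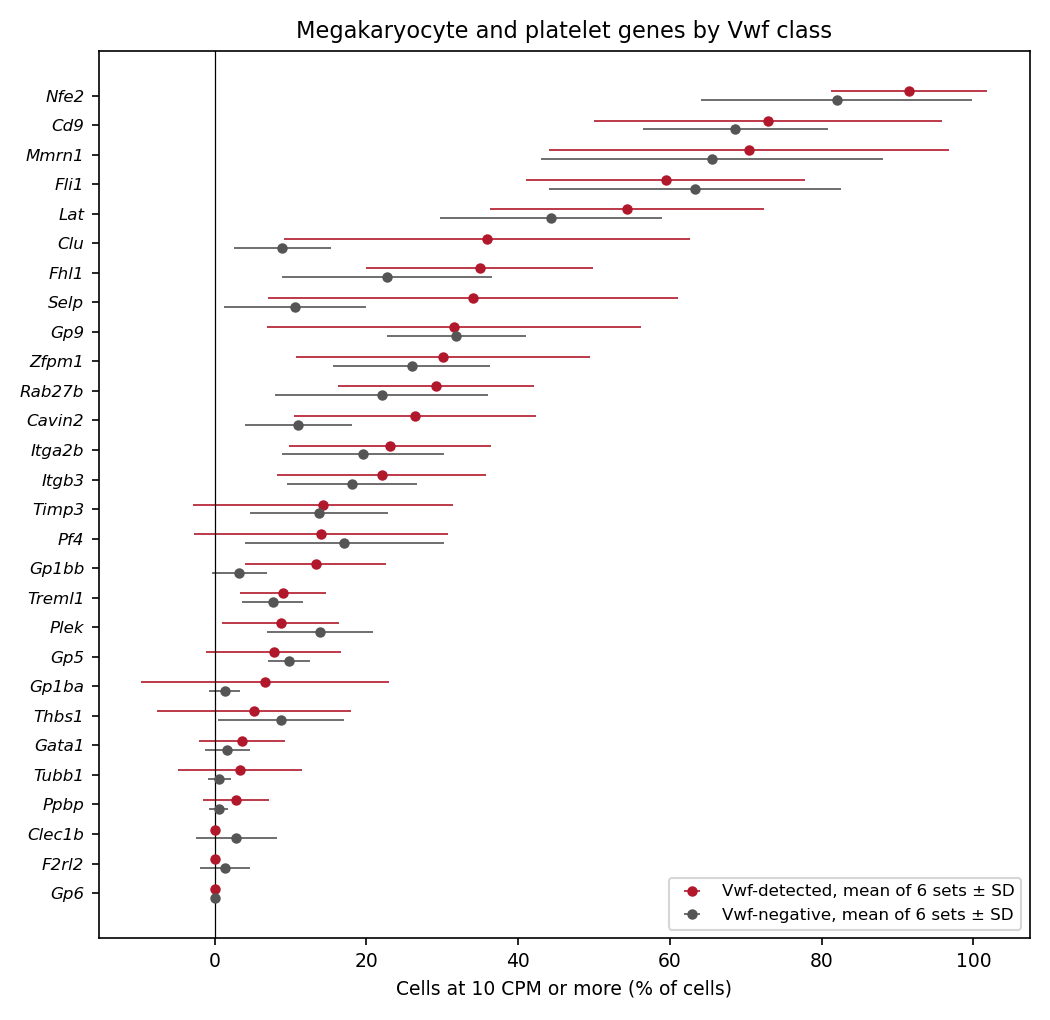
Share of cells with megakaryocyte and platelet genes at 10 CPM or more (%), as the mean of 6 sets with the SD, in Vwf-detected (red) and Vwf-negative (grey) cells. Clu and Selp lie at 35.9% ± 26.7 and 34.1% ± 27.0 against 8.92% ± 6.41 and 10.6% ± 9.38, and the SD bars of these genes overlap between the classes, as do those of Itga2b, Gp9 and Pf4.

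Counted per cell, Vwf-detected cells held 8.71 ± 1.97 genes of that list at 10 CPM and Vwf-negative cells 7.18 ± 1.38 (SD, n = 6 sets), with the larger value in Vwf-detected cells in 6 of 6 sets. These counts were not adjusted for genes detected per cell, which differed in the same direction in 5 sets. Cells overlapped widely, from 3 to 20 genes in Vwf-detected and from 0 to 13 in Vwf-negative cells. Another 11 members were too rare to be tested. Gp1bb, the beta subunit of glycoprotein Ib, was found in 9 of 63 against 5 of 157 cells. Gp6, the platelet collagen receptor, reached 10 CPM in 0 of 157 Vwf-negative and 0 of 63 Vwf-detected cells. A count of 0 among 63 limits the share of cells at that level to 4.76% (3 cells of the total, counting error only).

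Of 10 tested genes for its processing, storage and release, 5 were above 0, with Selp above and the cargo receptor Lman1 below 0 (-0.76) at an unadjusted limma p under 0.05. Of 9 tested transcription regulators of Vwf, 6 were above 0 and none lay under that p. Among them were Gata2 at 0.58, Erg at 0.27, Runx1 at 0.28, Tal1 at 0.11 and Fli1 at -0.35. Gata2 was at -0.60 and -0.76 in L29 HSC-3 and HSC-4 and between 0.24 and 1.72 in the L32 sets, a difference between series with an unadjusted limma p of 0.00526 (adjusted p = 0.90).

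Genes reported as higher in aged HSCs had the largest list median, at 0.57. Of 15 tested, 14 were above 0, where 49% of all genes were. Under an unadjusted limma p of 0.05 lay 9, all higher, where 3.14% of all genes were. Slamf1, Clu and Selp led the list, followed by the stress-response gene Nupr1 (0.97), Fhl1, Cavin2, the retinaldehyde dehydrogenase Aldh1a1 (0.55), Ehd3 (0.45) and Cd38 (0.57). The list shares 5 members with the megakaryocyte list, and without them 9 of 10 were above 0 with a median of 0.53. By set the full list's median was 0.15 and -0.06 in L29 HSC-3 and HSC-4, and 0.96, 0.30, 0.72 and 1.26 in L32 HSC-2 to HSC-5. Neo1, the receptor neogenin, was too rare for the test and was found in 12 of 63 against 3 of 157 cells, with the larger share in 5 sets.

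**Figure D3:**
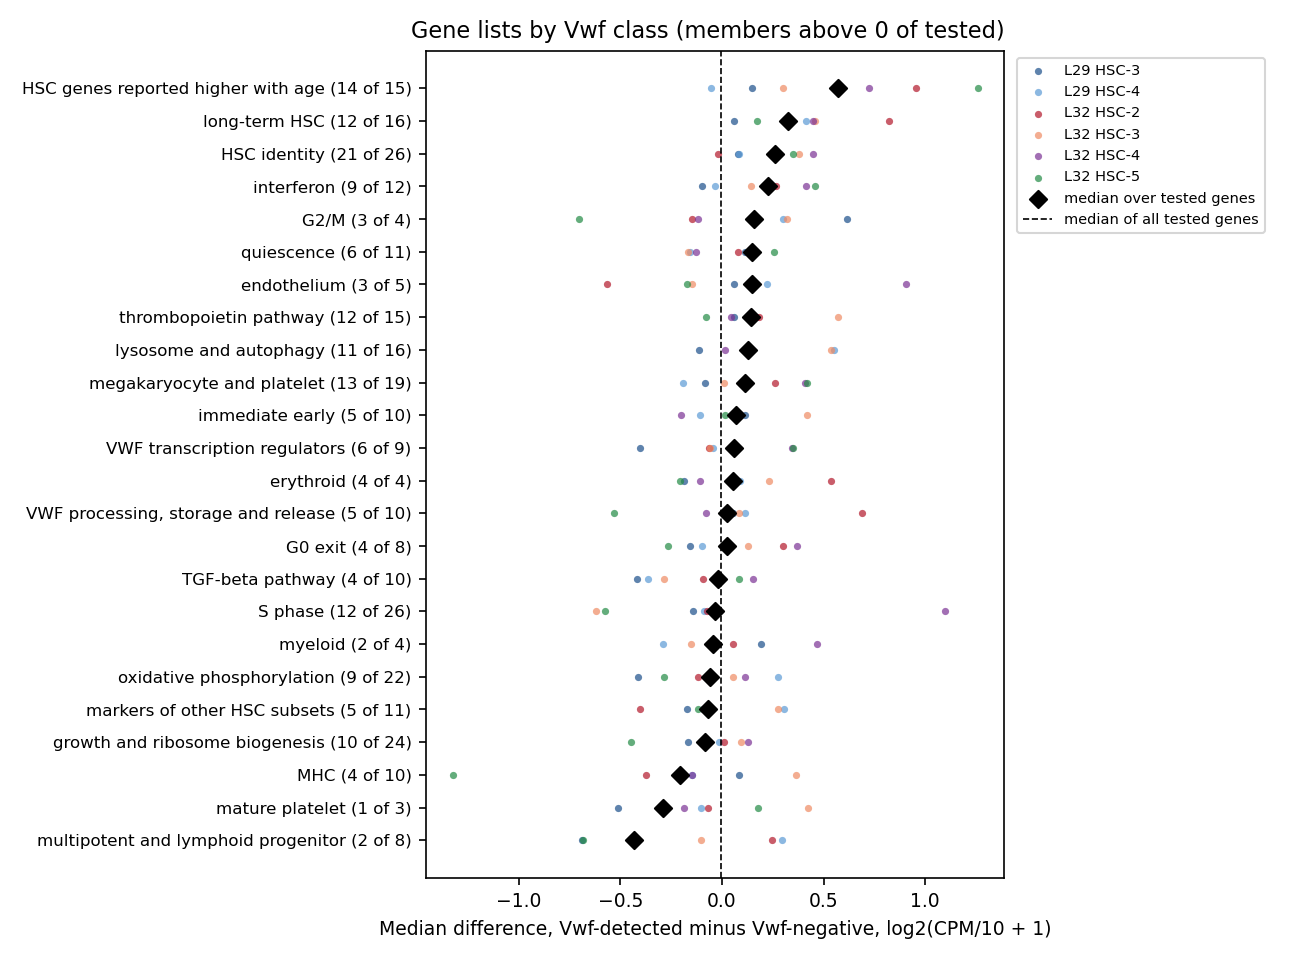
Median difference of each list's tested genes, Vwf-detected minus Vwf-negative, on the log2(CPM/10 + 1) scale. Diamonds are medians of the mean differences, coloured points the median in each set, and the dashed line the median of all genes. The list of genes reported higher with age is at the top, at 0.57, and multipotent and lymphoid progenitor genes are at the bottom, at -0.43.

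Long-term HSC genes had a median of 0.32, with 12 of 16 above 0 (49% of all genes) and a positive median in 6 of 6 sets. Under an unadjusted limma p of 0.05 lay 4, all higher, where 3.14% of all genes were. The 4 were Sult1a1, Slamf1, the GTPase gene Gimap6 (0.81) and Mllt3 (1.07, and 0.54 without L32 HSC-5), a chromatin reader that maintains HSCs. Procr, the protein C receptor EPCR used to sort HSCs, was at 0.59 ± 0.32. Of 26 HSC identity genes, 21 were above 0 (49% of all genes) with a median of 0.26. Under an unadjusted limma p of 0.05 lay 3 higher and 1 lower, where 3.14% and 3.49% of all genes were. Ndn, the growth suppressor necdin, was among the higher ones at 1.03 ± 0.28 (limma unadjusted p = 0.0049), with means of 188 ± 55.7 and 110 ± 44.9 CPM. Mecom, a transcription factor needed by HSCs, was at 0.54, and Kit and Hlf were at -0.16 and -0.01. Cdkn1c, the cell-cycle inhibitor p57 and too rare for the test, was found in 10 of 63 against 6 of 157 cells.

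Multipotent and lymphoid progenitor genes had the lowest list median, -0.43, with 2 of 8 tested above 0, where 49% of all genes were. Under an unadjusted limma p of 0.05 lay 3 lower and 1 higher, where 3.49% and 3.14% of all genes were. The lower 3 were the cytokine receptor Flt3 (-0.44), the lymphoid factor Ikzf1 (-0.73) and the actin regulator Coro1a (-0.75). Flt3 reached 10 CPM in 3 of 63 Vwf-detected and 22 of 157 Vwf-negative cells, and was at 0.42 in L29 HSC-4. The higher 1 was the transcription factor Mef2c (0.81). In near-empty wells Mef2c was at 1187 CPM (732 reads over 38 wells), and in the kept cells of those sets at 196 CPM. Cd34, a surface marker of shorter-lived progenitors, was at -0.70 ± 0.38. Of 10 MHC genes, 4 were above 0, where 49% of all genes were. Under an unadjusted limma p of 0.05 lay 1 higher and 2 lower, where 3.14% and 3.49% of all genes were. B2m was at 0.14 ± 0.03, Tap1 at -0.95 ± 0.31 and H2-Aa, a class II chain, at -1.21 ± 0.43. H2-Aa stood at 171 ± 194 against 323 ± 245 CPM.

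**Figure D4:**
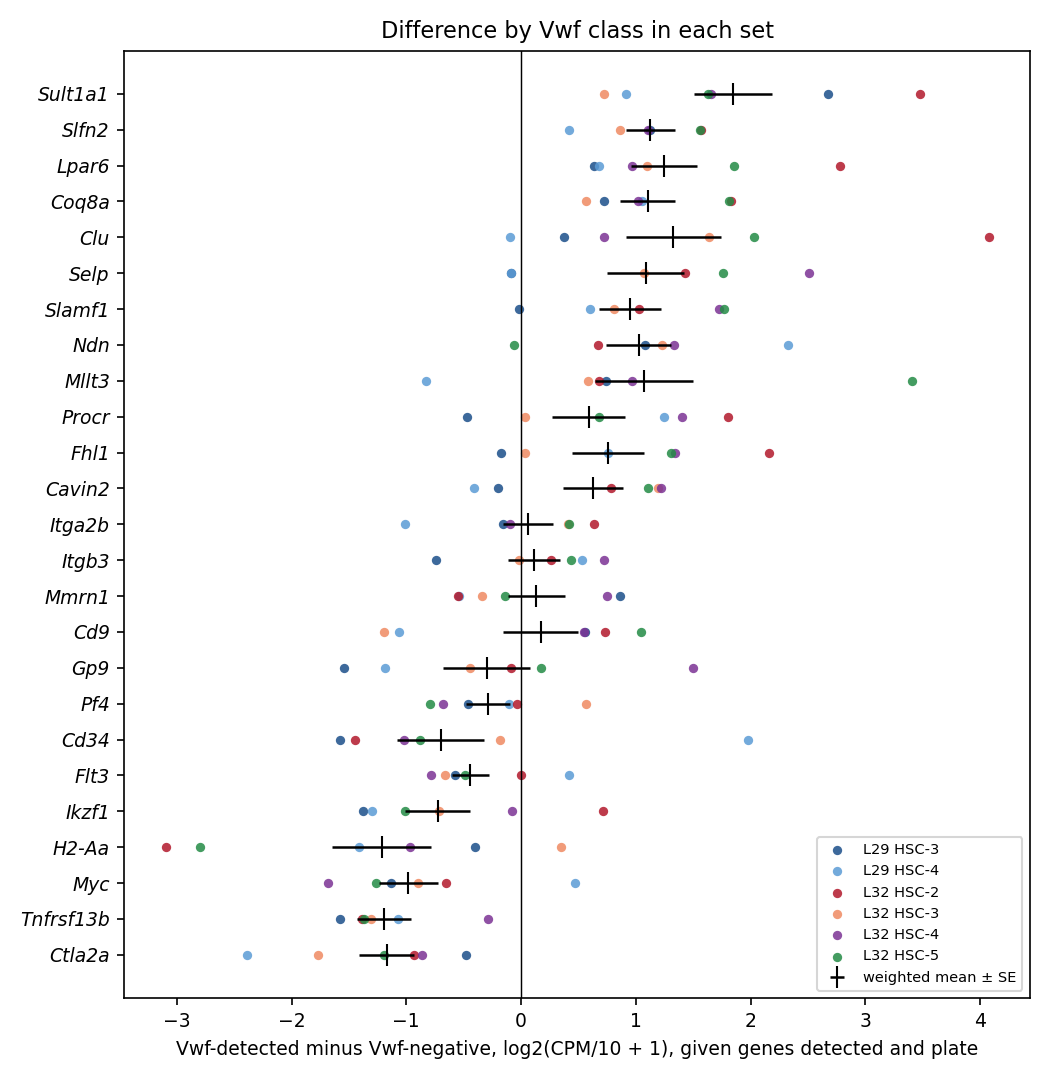
Difference between Vwf-detected and Vwf-negative cells for named genes on the log2(CPM/10 + 1) scale, given genes detected and plate. Coloured points are the 6 sets, and black marks the weighted mean with its SE. Sult1a1 is above 0 in every set, Clu and Selp lie near 0 in L29, and Ctla2a and Tnfrsf13b are below 0 in every set.

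Beyond the lists, genes with the smallest p above 0 included, after Sult1a1, Slfn2 (1.13), a schlafen gene needed for T cell quiescence, Lsr (0.55), Rac2 (0.58) and Srf (0.58). Next came Coq8a (1.10), Isy1 (1.10), Lpar6 (1.24) and Pttg1ip (1.11). Rac2 is a GTPase of blood cells, and Srf is a factor for actin and immediate early genes. Srf was at 35.7 CPM in near-empty wells (22 reads over 38 wells), above the 4.79 CPM of kept cells there. The part of such reads in the difference was not tested.

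With the smallest p below 0 were Rbm28 (-0.89), Tnfrsf13b (-1.19), Ctla2a (-1.17), Spout1 (-0.94), Utp6 (-0.85), Zfp207 (-0.89), Mlec (-1.11), Arhgdib (-0.81), Prdm4 (-0.46) and Taldo1 (-1.11). All but Zfp207 and Taldo1 were below 0 in 6 of 6 sets, as were 195 of all genes (1.99%). Rbm28 and Utp6 take part in ribosome assembly, and Tnfrsf13b is the receptor TACI of B cells. Rbm28 stood at 14.8 ± 15.4 CPM in Vwf-detected and 67.4 ± 33.6 CPM in Vwf-negative cells. Ctla2a, at 367 ± 175 against 467 ± 156 CPM, has a near-identical paralog, so its value is uncertain. It was also at 546 CPM in near-empty wells (337 reads over 38 wells). Zfp207 was at 872 CPM in near-empty wells (538 reads) and at 441 CPM in kept cells of those sets, and Ikzf1 at 130 (80 reads) and 86.1 CPM.

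Myc, the growth-promoting transcription factor, was at 119, 314, 508, 150, 271 and 136 CPM in Vwf-detected cells of the 6 sets from L29 HSC-3 to L32 HSC-5. In Vwf-negative cells it was at 324, 438, 403, 408, 705 and 447 CPM. Its mean level was smaller in Vwf-detected cells in all sets but L32 HSC-2. The modelled difference was -0.98 ± 0.26 (limma unadjusted p = 0.00352), below 0 in all sets but L29 HSC-4, and DESeq2 gave an adjusted p of 1.51e-05. The related Mycn was at 0.81 ± 0.28.

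S phase, growth and oxidative phosphorylation lists had medians near that of all genes, but S phase genes varied widely between sets. Of 26 S phase genes, 12 were above 0 with a median of -0.04. By set the S phase median was -0.14 and -0.09 in L29 HSC-3 and HSC-4, and -0.07, -0.62, 1.09 and -0.57 in L32 HSC-2 to HSC-5. Of 22 oxidative phosphorylation genes, 9 were above 0 with a median of -0.06. Growth and ribosome biogenesis genes had a median of -0.08 over 24 genes. At least 5 G2/M genes were found in 6.63% ± 11.3 of Vwf-detected and 3.25% ± 2.68 of Vwf-negative cells. Among Vwf-detected cells the share was 27.3% in L32 HSC-4, 12.5% in L29 HSC-3 and 0 in the other sets. The Vwf-detected share was the larger in 2 sets and the smaller in 3. Lysosome and autophagy genes had 11 of 16 above 0 and interferon genes 9 of 12, where 49% of all genes were above 0.

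Of the 16 endothelial markers, those taken as defining the lineage were at or near 0 except Emcn, and others were not. Cdh5 was at 10 CPM in 0 of 63 Vwf-detected cells, Stab2 in 0, Kdr in 3, Plvap in 3, Flt1 in 2 and Cldn5 in 2. The endothelial markers Tie1, Pecam1 and Emcn, which HSCs also express, were found in 37, 18 and 23 of 63 Vwf-detected and in 68, 33 and 42 of 157 Vwf-negative cells. All 16 summed to between 322 and 877 CPM by set in Vwf-detected and between 338 and 624.9 CPM in Vwf-negative cells, with the larger sum in Vwf-detected cells in 2 of 6 sets. The platelet genes Ppbp and Tubb1 were found in 2 and 1 Vwf-detected cells, and mature platelet markers summed to between 91.4 and 210 CPM against between 97.7 and 246 CPM. The 10 T and NK cell genes, none of them common enough to be tested, summed to between 33.8 and 201 CPM by set in Vwf-detected and between 11.6 and 57.3 CPM in Vwf-negative cells, with means of 114 and 30.3 CPM. The sum was larger in Vwf-detected cells in 6 of 6 sets, and its part in the other differences was not tested. The list's member Klrb1c, an NK cell receptor gene singled out after its values were seen, was found in 15 of 63 against 4 of 157 cells, while Cd3e and Ncr1 were found in 0 of either class.

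Selp, Clu and Sult1a1 were also counted in the same cells, a choice made after their values were seen, so no test is given. At least 2 of these genes were found in 32 of 63 Vwf-detected cells (50.8%) and 13 of 157 Vwf-negative cells (8.28%). By series this was 3 of 21 against 1 of 64 cells in L29, and 29 of 42 against 12 of 93 in L32. All 3 were found in 10 and 3 cells, and none in 12 and 82. L29 HSC-4 held no such cell in either class.

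**Figure D5:**
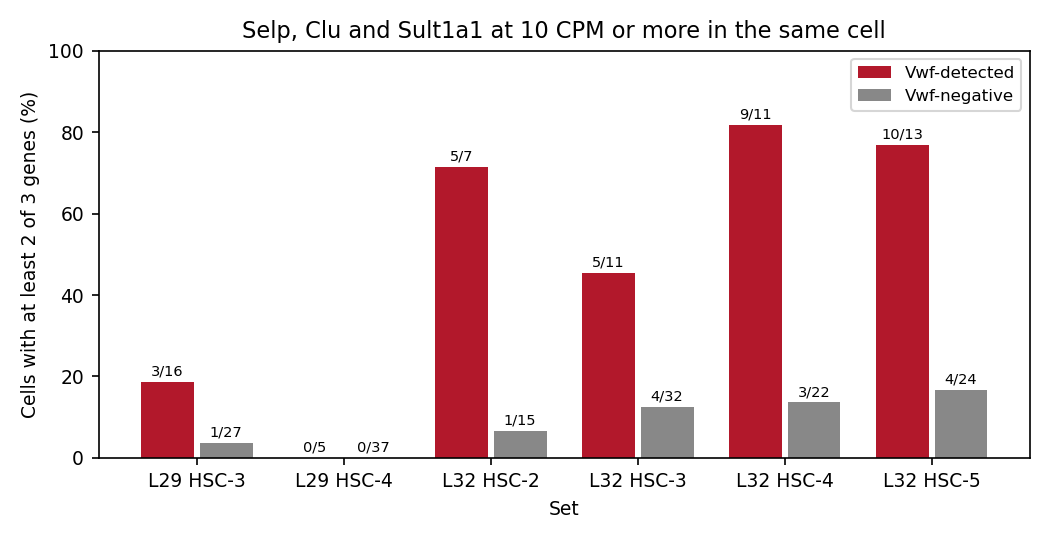
Share of cells (%) with at least 2 of Selp, Clu and Sult1a1 at 10 CPM or more in each set, in Vwf-detected (red) and Vwf-negative (grey) cells, with cells over the class total above each bar. The L32 sets show the larger shares, and L29 HSC-4 holds 0 in both classes.

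Within the 63 Vwf-detected cells, the level of Vwf followed these genes only weakly. Spearman's correlation across cells was 0.11 for Selp, 0.07 for Clu and 0.12 for Sult1a1, a description over cells that share sets and depth. It was 0.12 for total counts and -0.17 for genes detected.

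With each cell thinned to 100000 reads, the read total was equal. Cells classed anew by a remaining Vwf read still held more genes in 5 of 6 sets. By the original classes (63 and 157 cells), thinned reads held Sult1a1 in 77.8% of Vwf-detected and 40.1% of Vwf-negative cells. Clu was found in 39.7% and 8.92%, Selp in 36.5% and 11.5%, and Slamf1 in 44.4% and 13.4%. Itga2b was found in 25.4% and 22.9%.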

How the data were processed

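The authors deposited 1 table of raw read counts for genes in single cells. Reads were handled with GSNAP and featureCounts 1.6.2 on build mm10, per the submitters' processing notes. Strand and multi-mapping settings are not given in the sources used here, so overlapping genes and near-identical copies are uncertain. Template-switching libraries from poly(A) RNA were amplified without molecular identifiers, per the labels' protocols, so reads are not independent molecules.

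Cells with at least 100000 gene counts and 1000 genes were kept. CPM was computed from the deposited counts without spike-ins. Genes at 10 CPM in 10% of compared cells were tested, Vwf left out. Per-set class differences on log2(CPM/10 + 1), given genes detected and plate, were tested in limma 3.58.1 with Benjamini-Hochberg adjustment over 9775 genes. edgeR 4.0.16 and DESeq2 1.42.0 were run on summed counts, without genes detected and plate, since these covariates are per cell. No doublet caller was run, as each well was sorted with 1 cell.

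The cell classes and 28 gene lists were chosen with earlier results of these data known. Named genes were those under an adjusted p of 0.05 or, with none, the 10 smallest p per direction, all tested megakaryocyte genes and other HSC subset markers, the 3 smallest p of each other list, and genes within 500 kb of Vwf. Other list members named, tested or too rare to test, were chosen after their values were seen. Results for a few of these genes are left out here. Both classes come from each set, and this pairing is kept by taking differences within sets. The model was tested on simulated counts.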

Additional observations from a re-analysis of the deposited data

Results flagged for a closer look

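Of 57 values compared over the 6 sets, 6 had 1 set far from the other 5, and chance alone flags about 1 in 20. In L32 HSC-2, Vwf-detected cells held fewer genes than Vwf-negative cells (a difference of -422), where the other sets ran from 234 to 488 more. The same set stood apart for Rbm28, at -0.47 against -1.04 to -0.88 elsewhere, and for Zfp207, at 0.30 against -1.20 to -0.75. In L29 HSC-4 the mitochondrial share differed by -0.746 points in Vwf-detected cells, against -0.0748 to 0.324 elsewhere, and Srf was at -0.032 against 0.57 to 0.92. In L32 HSC-5, Arhgdib was at -1.75, against -0.80 to -0.35 in the other sets.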

How the results depend on the processing

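The count of genes past the adjusted test stayed at 0 in every limma and edgeR alternative run (another pseudocount, filters, thresholds, covariates, thinning, no weights, and each set left out) and moved to 80 in DESeq2 with the set as replicate block. Under DESeq2, 10 named genes passed, among them Sult1a1, Myc, Ndn and Slamf1. edgeR without the replicate block also called 0. Of 115 named genes, 34 changed sign under some setting, but of the 49 under an unadjusted limma p of 0.05 only Rsad2 did, at -0.44 with the block, -0.47 without, -0.41 with RLE factors and -0.41 in DESeq2.

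List medians moved by more than their spread over sets on summed counts, given in the order edgeR with the replicate block, RLE, DESeq2. Mature platelet went to -1.57, -1.55 and -1.57, and with each set left out ran from -0.32 to 0.10, the latter without L29 HSC-3. Myeloid went to -0.36, -0.33 and -0.34, stroma to -0.80, -0.76 and -0.76, and quiescence to -0.066, -0.050 and -0.060. With edgeR without the block added last, erythroid went to 0.55, 0.58, 0.58 and 0.54, interferon to -0.068, -0.037, -0.037 and -0.046, and TGF-beta to -0.61, -0.58, -0.58 and -0.33. TGF-beta was at -0.29 with a 25% filter, VWF regulators at -0.23 with the block, and the age list at 1.09 without it. The cause was not tested.

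Differences in depth measures were near 0 and changed sign. The difference in log2 total counts went to -0.020 at a 50 CPM threshold. It went to -0.057 when cells were classed by their thinned Vwf reads, with the full totals kept. With each set left out it ran from -0.026 to 0.045, below 0 without L29 HSC-4 or L32 HSC-3. Log2 reads per spike-in read went to -0.078 at 50 CPM and ran from -0.081 without L29 HSC-4 to 0.15. The mitochondrial share ran from -0.167 to 0.0471 points, the latter without L29 HSC-4, and the G2/M share from -1.41 points without L32 HSC-4 to 5.30. Low depth limits genes under 10 CPM, and 3 reads decide a class at the threshold.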

Other observations

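The H2B-GFP transgene, uninduced in these mice, was read beside Vwf. At least 1 H2B-GFP read was found in 5 of 63 Vwf-detected cells (7.94%, exact 95% interval 2.63% to 17.6%) and in 11 of 157 Vwf-negative cells (7.01%, 3.55% to 12.2%). Near-empty wells held one in 6 of 38 (15.8%). The difference between the classes was -0.46 points ± 7.88 (SD, n = 6 sets, exact two-sided sign-flip p = 0.875).

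Vwf-detected cells held Ramp2, a coreceptor of the adrenomedullin receptor, in 8 of 63 cells against 3 of 157. Both values rest on few cells and were not tested.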
